A study of Mus musculus with 2 samples.

Results

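Transcripts of 10 receptors through which hormones and a neuropeptide act on mineralized tissue were compared between compressed and control cultures of the line OCCM-30. The genes were picked by symbol from a table of 44792 gene rows, and all 10 had a row. The choice was made with ratios between these libraries already known, so the ratios below describe the genes and were not tested. OCCM-30 is an immortalized mouse line that resembles cementoblasts, which deposit the mineralized cementum on tooth roots. There was 1 RNA sequencing library of compressed cells and 1 of control cells, both from cells kept in DMEM with serum and antibiotics. The sources used here do not say how strong the compressive force was or how long it lasted. With 1 library per group no difference has a replicate check, and each value compares the libraries and not the conditions.

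Nuclear receptors are transcription factors that bind a small lipid-soluble hormone and switch genes on or off at specific DNA elements. Estrogen receptors restrain bone loss, the vitamin D receptor governs mineral handling, the glucocorticoid receptor carries the stress steroid signal, and retinoic acid and thyroid hormone receptors steer skeletal growth. Several of them act as partners of retinoid X receptors. The receptors for parathyroid hormone, growth hormone and neuropeptide Y sit in the cell surface, and all have roles in cells of the bone lineage.

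Estrogen receptor alpha (Esr1) and the neuropeptide Y receptor Npy1r were the receptors called lower in the compressed library, Esr1 by 3.11 times and Npy1r by 4.17 times. Estrogen receptor beta (Esr2) was 1.61 times lower and the thyroid hormone receptor gene Thra was 1.69-fold higher. The other 6 genes, which include the receptors for vitamin D, glucocorticoids, retinoic acid, parathyroid hormone and growth hormone, lay within 1.5-fold of an equal level. The promoter windows of the 3 lower genes are shown first, so that the letters around their start sites stand beside the values. They come from RefSeq on GRCm38.p6, a patch of the build that the submitters' processing notes name, and each covers 250 bases before and 50 bases after an annotated start. Windows were matched for 8 of the 10 genes. None was found for Nr3c1 or Thra, so these genes were not searched for motifs. The Esr1 windows lie at chr10:4611739-4612038 and chr10:4709908-4710207 on the plus strand, the Npy1r window at chr8:66697172-66697471 on the plus strand, and the Esr2 window at chr12:76177210-76177509 on the minus strand. Capitals mark ACGTG on either strand, a form of the core letters of the element bound by hypoxia-inducible factors. The other form, GCGTG, was not searched or marked, so a window without capitals may still hold a core.
Esr1, upstream start: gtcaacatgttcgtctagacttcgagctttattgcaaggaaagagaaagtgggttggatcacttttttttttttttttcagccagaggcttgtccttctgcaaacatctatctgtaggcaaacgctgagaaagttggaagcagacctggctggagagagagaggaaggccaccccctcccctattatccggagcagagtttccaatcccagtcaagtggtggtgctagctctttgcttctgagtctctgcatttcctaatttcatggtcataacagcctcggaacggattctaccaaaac
Esr1, downstream start: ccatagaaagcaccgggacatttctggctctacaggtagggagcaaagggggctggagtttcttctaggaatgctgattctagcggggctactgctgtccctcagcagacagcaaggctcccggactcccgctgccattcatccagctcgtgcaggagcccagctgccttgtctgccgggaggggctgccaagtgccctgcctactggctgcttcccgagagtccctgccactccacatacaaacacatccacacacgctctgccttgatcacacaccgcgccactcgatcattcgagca
Npy1r: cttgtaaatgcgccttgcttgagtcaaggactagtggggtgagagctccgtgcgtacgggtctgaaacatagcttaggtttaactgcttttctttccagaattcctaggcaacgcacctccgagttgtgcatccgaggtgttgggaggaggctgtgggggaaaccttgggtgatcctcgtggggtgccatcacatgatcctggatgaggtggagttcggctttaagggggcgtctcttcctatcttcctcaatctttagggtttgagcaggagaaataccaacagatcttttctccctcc
Esr2: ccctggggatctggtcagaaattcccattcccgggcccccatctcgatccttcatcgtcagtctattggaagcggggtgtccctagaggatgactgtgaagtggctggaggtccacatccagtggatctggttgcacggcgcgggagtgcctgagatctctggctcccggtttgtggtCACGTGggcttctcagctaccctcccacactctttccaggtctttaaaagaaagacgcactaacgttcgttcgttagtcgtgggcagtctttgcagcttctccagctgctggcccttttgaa

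The Esr1 and Npy1r windows held no ACGTG, and the Esr2 window held the palindrome CACGTG, which carries the motif on both strands at the same place. Over all 32851 promoter windows of this length, 19.6% held ACGTG on at least 1 strand, against 4 of the 16 windows of the receptor genes. Those 4 belonged to Rara, Rarg and Esr2, and the windows of Rara that held it overlap each other. AGGTCA, the half-site shared by receptors for estrogen, vitamin D, retinoic acid and thyroid hormone, was found on either strand in 2 of the 16 windows, 1 of Rara and 1 of Rarg, and in 16.3% of all windows. AGAACA, the half-site of the glucocorticoid receptor, was in 1 of the 16 windows, of Pth1r, and in 19.0% of all windows. TGACGTCA, the cyclic AMP response element, reads the same on both strands and was in 0 of the 16 windows and in 1.79% of all. No motif of these contains another, although adjacent matches could share letters. A match is a description of letters, and a window without one says nothing about binding elsewhere.

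Depth was similar, with 24296292 counts for compressed cells against 25049919 for control cells. Counts were scaled to a library of 1000000 (CPM), and a ratio is the compressed over the control CPM with a 95% interval for counting error only. A gene was called when it reached 1 CPM in a library, differed by 2-fold or more with a prior count of 0.5 added, and had an interval that excluded 1. The CPM minimum left 14001 genes, of which 428 were called higher (3.06%) and 130 lower (0.929%). After subtraction of a loess trend on abundance the calls were 355 higher and 185 lower, so that 65.7% of calls were higher in place of 76.7%. Col1a1, the main collagen of bone and cementum, had 188419 counts in compressed cells against 188837 in control cells, and Runx2, the osteoblast transcription factor, had 4416 counts in compressed cells against 5788 in control cells. The cementoblast marker bone sialoprotein (Ibsp) had no counts. For counting error alone, a floor of 3 counts equals 0.124 CPM in compressed cells against 0.12 CPM in control cells. As the Gnas counts below show, 0 counts do not show that a gene is silent, so the floor is no upper limit on expression. Phospho1, a phosphatase of mineral formation, was called higher among the 10 cementoblast and osteoblast markers above the minimum, and 0 were called lower. Markers of other cell types had low sums, at 20.6 CPM in compressed cells against 21.1 CPM in control cells over 10 macrophage and osteoclast genes. The 8 epithelial markers summed to 2.80 CPM in compressed cells against 3.11 CPM in control cells, and the 7 endothelial markers to 4.32 CPM in compressed cells against 4.15 CPM in control cells. The 8 adipocyte and chondrocyte markers summed to 26.0 CPM in compressed cells against 31.0 CPM in control cells. Above the minimum were 4 of the 10 macrophage and osteoclast markers, 2 of the 8 epithelial and 2 of the 7 endothelial ones, and 0 of these were called. Among them, the monocyte receptor Cd14 had 242 counts in compressed cells against 276 in control cells, and Csf1r, the receptor of a macrophage growth factor, had 39 in compressed against 44 in control cells. The keratin gene Krt8 had 27 counts in compressed and 23 in control cells, and Vwf, the von Willebrand factor of endothelium, had 84 in compressed and 70 in control cells. Counts were 0 in both libraries for 3 of the 10, 3 of the 8 and 4 of the 7, which include Ptprc, Epcam and Kdr, named here once their values were known. The part of other cells in the results below was not tested.

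All 10 receptor genes passed the CPM minimum, Npy1r through the control library alone. Of these, 0 were called higher, against 3.06% of all genes, and 2 were called lower, against 0.929%. Since these ratios were known when the genes were picked, nothing is read from that count. Counting intervals lay above 1 for 2 of the 10 (26.3% of all genes) and below 1 for 4 (28.6%), and included 1 for the other 4. The median log2 ratio of the 10 was 0.04, and that of all genes above the minimum was -0.01. Esr1, Esr2, Pth1r and Npy1r had a mean below 5 CPM, a range in which 3.86% of 3184 genes were called lower and 9.52% higher. Of the 4943 genes with a mean of at least 50 CPM, 0.0202% were called lower and 0.809% higher. In RNA from a whole culture, fewer cells that express a gene and less RNA per cell cannot be told apart.

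**Figure D1:**
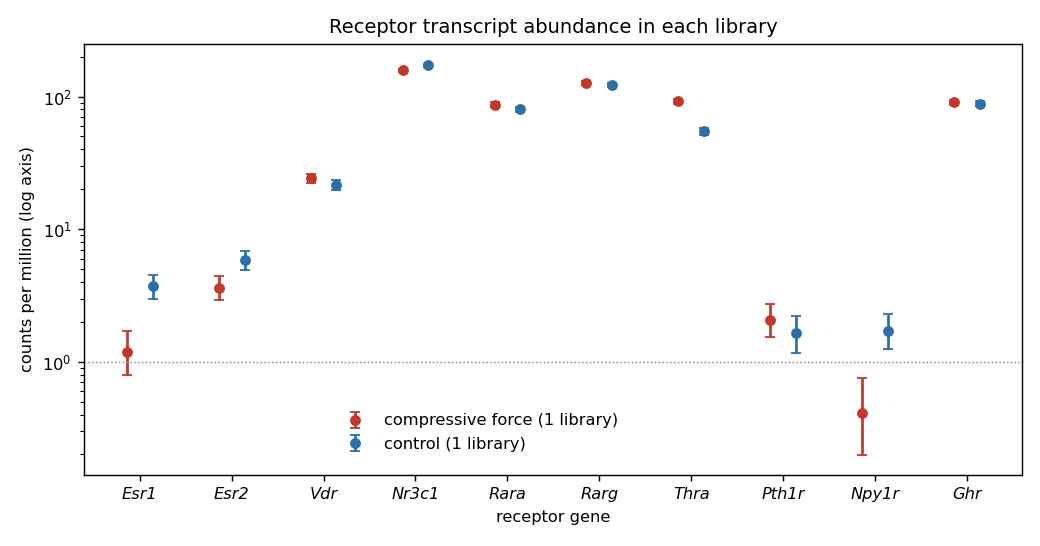
Abundance of the 10 receptor genes in CPM on a log axis, with the compressed library left of the control library for each gene; points are single libraries, bars are exact 95% Poisson intervals for counting error only, and the dotted line marks 1 CPM. The intervals of the libraries lie apart for Esr1, Esr2, Npy1r, Thra and Nr3c1. How many of all genes have intervals that lie apart was not counted. Ratio intervals lay above 1 for 26.3% of all genes and below 1 for 28.6%, so nothing is read from this separation. Npy1r in the compressed library sits below the line at 0.412 CPM.

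Esr1 encodes estrogen receptor alpha, the receptor that carries most of the estrogen effect in bone, and lies on chromosome 10 at 4611989 to 5005633. It had 29 counts in the compressed library (95% Poisson interval 19.4 to 41.6) and 93 counts in the control library (75.1 to 113.9). That was 1.19 CPM in compressed cells against 3.71 CPM in control cells. The Poisson intervals did not overlap, and the compressed library was the low one. The ratio was 0.322 with an interval of 0.204 to 0.493, a log2 ratio of -1.62, so Esr1 was called lower. Of all genes above the CPM minimum, 0.157% had a log2 ratio as low as that of Esr1 or lower. The receptor genes were picked with their ratios known. Nothing is therefore read from this share or from those given for other receptor genes. Esr1 and Npy1r both lay below 5 CPM in each library, so a CPM minimum of 5 left neither call.

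Esr2 encodes estrogen receptor beta, the related receptor that binds the same hormone, and lies on chromosome 12 at 76120419 to 76177259. It had 88 counts in the compressed library (70.6 to 108.4) and 146 in the control library (123.3 to 171.7), equal to 3.62 CPM in compressed against 5.83 CPM in control cells. The compressed library was again the low one and the intervals lay apart. The ratio of 0.622 (0.472 to 0.816) did not reach the fold limit of 2, and 2.81% of all genes had a log2 ratio as low or lower. At a fold limit of 1.5, past which 3.71% of all genes were lower and 7.31% higher, Esr2 was also called lower. A RefSeq pseudogene, Gm7862, lies within the span of Esr2, and how reads with several alignments were counted is not given.

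Estrogen-responsive genes were listed to show the other side of these receptors. Of 14 listed genes other than Esr1, 7 lay above the CPM minimum. Of the 7, 0 were called higher (3.06% of all genes) and 0 lower (0.929%). Their median log2 ratio was -0.17. Bcl2, an inhibitor of apoptosis, had 689 counts in compressed cells against 1217 in control cells, a ratio of 0.584 (0.531 to 0.642). Cxcl12, a chemokine, had 1231 counts in compressed cells against 2092 in control cells, a ratio of 0.607 (0.565 to 0.652). At the other end stood the lysosomal protease Ctsd, with a ratio of 1.10 (1.07 to 1.13), and Igfbp4, a binding protein of insulin-like growth factors, whose ratio of 1.28 had an interval of 0.925 to 1.78. Greb1, a classical estrogen target picked once its values were known, had 0 counts in compressed cells against 8 in control cells, below the minimum. The progesterone receptor gene Pgr, another classical target, was at 0 in both libraries. Many of these genes answer to other signals too, and the activity of the estrogen receptors was not measured.

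**Figure D2:**
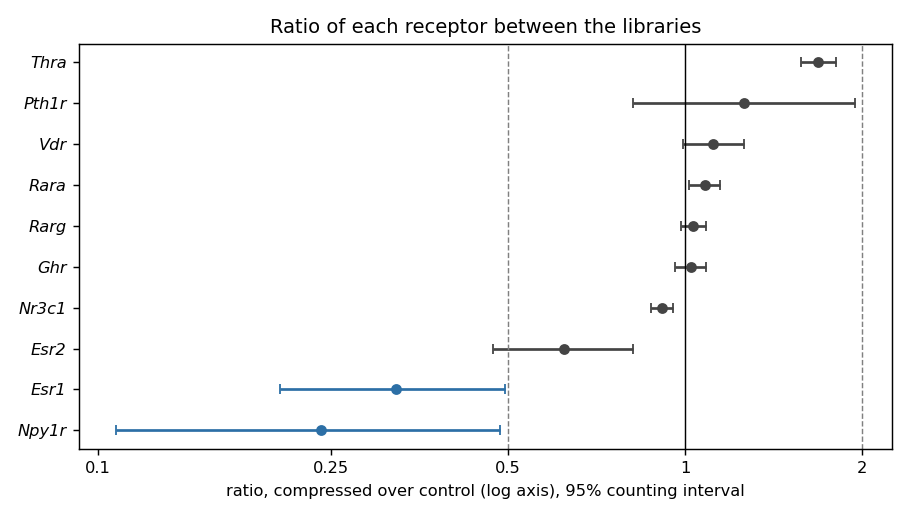
Ratio of each receptor gene, compressed over control, on a log axis, with the exact 95% counting interval; blue marks the genes called lower and the dashed lines mark ratios of 0.5 and 2. Npy1r and Esr1 lie left of 0.5 with their whole intervals, Thra is farthest right at 1.69, and the broad interval of Pth1r spans 0.816 to 1.95.

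The vitamin D receptor gene Vdr, whose protein binds calcitriol, lies on chromosome 15 at 97854427 to 97908296. Vdr had 586 counts in compressed cells against 541 in control cells, equal to 24.1 CPM in compressed against 21.6 CPM in control cells. The libraries were close, with a ratio of 1.12 (0.993 to 1.26) whose interval included 1. Of 14 listed vitamin D target genes other than Vdr, 6 lay above the minimum, with a median log2 ratio of 0.09. Of the 6, 0 were called higher (3.06% of all genes) and 0 lower (0.929%). The highest was the Wnt coreceptor Lrp5, with 2768 counts in compressed cells against 1870 in control cells, a ratio of 1.53 (1.44 to 1.62). The ratio of Ank, which exports pyrophosphate, was 1.25 (0.937 to 1.68), that of Tnfsf11, the osteoclast cytokine RANKL, 0.989 (0.736 to 1.33), and that of Cyp27b1, the enzyme that makes calcitriol, 0.856 (0.545 to 1.34). Cyp24a1, which breaks calcitriol down and is a strongly induced target of the receptor, had 0 counts in both libraries and was picked once its values were known.

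Nr3c1 encodes the glucocorticoid receptor, which nearly all cells carry, and lies on chromosome 18 at 39410545 to 39519421. Nr3c1 had 3824 counts in compressed cells against 4314 in control cells, equal to 157.5 CPM in compressed against 172.1 CPM in control cells. The compressed library was the lower one by a small margin, at a ratio of 0.915 (0.876 to 0.956). Of 18 listed glucocorticoid target genes, 14 lay above the minimum, with a median log2 ratio of 0.28. Of the 14, 2 were called higher (3.06% of all genes) and 0 lower (0.929%). The genes called were the clock gene Per1, with 2585 counts in compressed cells against 1143 in control cells, and Ddit4, an inhibitor of the growth kinase mTORC1, with 780 counts in compressed cells against 399 in control cells. Per1 is also driven by the circadian clock, and Ddit4 by low oxygen. Per1 stood at a ratio of 2.33 (2.18 to 2.50). Ddit4 was just past the limit, at 2.02 (1.79 to 2.28), and lost its call under DESeq2 size factors, which left 1 of the 14 called higher. The lowest were the transcription factor Cebpd at 0.756 (0.639 to 0.894) and the lipase inhibitor Angptl4 at 0.802 (0.684 to 0.939). Fkbp5, which many glucocorticoid studies use as the reference target and which was chosen after its values were seen, had a ratio of 0.965 (0.907 to 1.03).

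The retinoic acid receptors of the set had nearly equal levels in the libraries. Rara, the alpha receptor, lies on chromosome 11 at 98927800 to 98974942 and had 2103 counts in compressed cells against 2009 in control cells, a ratio of 1.08 (1.02 to 1.15). Rarg, the gamma receptor and the main form in skeletal tissue, lies on chromosome 15 at 102234938 to 102257522 and had 3070 counts in compressed cells against 3066 in control cells. The Rarg ratio of 1.03 had an interval of 0.982 to 1.09. The beta receptor gene Rarb, which is itself induced by retinoic acid and is not one of the 10, had 21 counts in compressed cells against 32 in control cells, a ratio of 0.677 (0.371 to 1.21). Of 16 listed retinoic acid target genes 8 lay above the minimum, and the median log2 ratio was 0.18. Of the 8, 0 were called higher (3.06% of all genes) and 0 lower (0.929%). Cyp26b1, an enzyme that degrades retinoic acid, had 60 counts in compressed cells against 114 in control cells, a ratio of 0.543 (0.391 to 0.749) that did not reach the limit. Its relative Cyp26a1, picked once its values were known, had 3 counts in compressed cells against 17 in control cells, a ratio of 0.182 (0.0342 to 0.630), both under 1 CPM. Dhrs3, which turns retinaldehyde back into retinol, had a ratio of 1.52 (1.24 to 1.86), and the homeobox gene Meis2 of 1.40 (1.26 to 1.55).

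Thra, which encodes thyroid hormone receptor alpha and a splice form that does not bind the hormone, had the highest ratio of the 10. It had 2235 counts in the compressed library (2143 to 2330) and 1367 counts in the control library (1295 to 1441), equal to 92.0 CPM in compressed against 54.5 CPM in control cells. The intervals lay far apart and the compressed library was the high one. The ratio of 1.69 (1.58 to 1.81) stayed below the fold limit of 2 and passed that of 1.5, and 94.8% of all genes had a log2 ratio at or below that of Thra. Thra lies on chromosome 11 at 98740776 to 98769006, and its end overlaps by 1075 bases the end of Nr1d1, the clock repressor REV-ERB alpha, at 98767932 to 98775377. Nr1d1 runs on the opposite strand, and it had 1151 counts in compressed cells against 345 in control cells, a ratio of 3.44 (3.05 to 3.89). The strand setting of the counting is not given, so reads from the overlap may have gone to either gene or to none, and the part of Nr1d1 in the Thra ratio was not tested. Counts per gene also do not separate the hormone-binding form from the other form. The spans of Vdr, Rara, Pth1r and Ghr overlap RefSeq genes that were not analysed here, so their counts carry the same limit.

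Thyroid hormone receptor beta (Thrb), the second receptor for the hormone, had 601 counts in compressed cells against 698 in control cells, a ratio of 0.888 (0.795 to 0.992). Of 13 listed thyroid hormone target genes 6 lay above the minimum, with a median log2 ratio of 0.15. Of the 6, 1 was called higher (3.06% of all genes) and 0 lower (0.929%). The called gene was hairless (Hr), a corepressor of nuclear receptors, with 137 counts in compressed cells against 63 in control cells, a ratio of 2.24 (1.65 to 3.07). Klf9, a transcription factor that glucocorticoids also induce, had a ratio of 1.41 (1.22 to 1.63). The calcium pump gene Atp2a2 was the lowest, with 12424 counts in compressed cells against 17004 in control cells, a ratio of 0.754 (0.737 to 0.772).

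**Figure D3:**
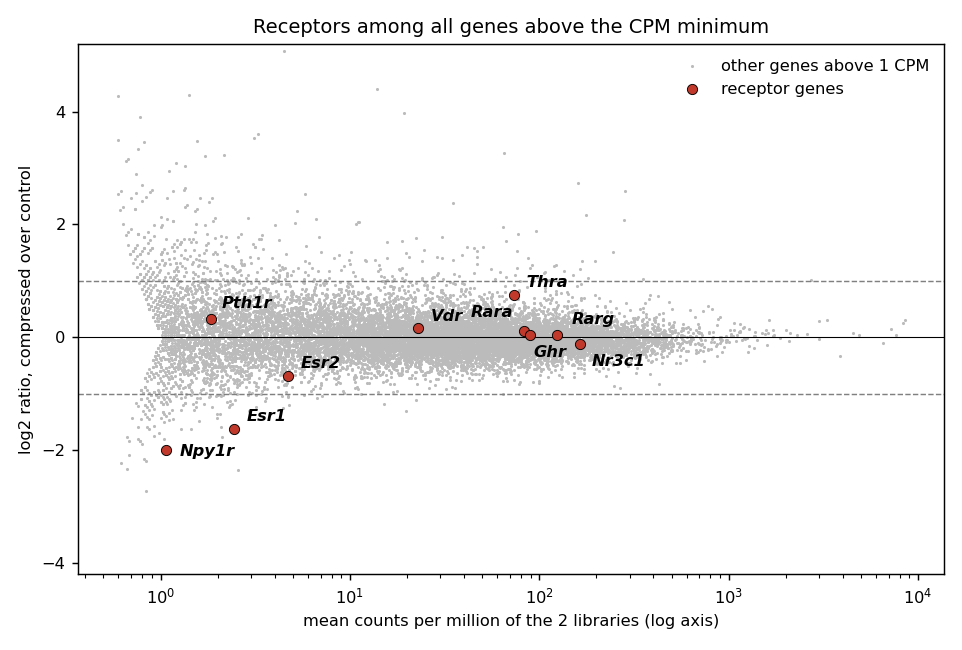
Log2 ratio, compressed over control, against mean CPM of both libraries on a log axis, for each gene above the CPM minimum (grey, with 1 gene outside the plotted range) and the 10 receptor genes (red); dashed lines mark a 2-fold difference. Esr1 and Npy1r lie below -1 at the low-abundance end, where the grey points spread widely, and Thra lies at 0.75 where they are tight.

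Pth1r, the receptor for parathyroid hormone and its related peptide, couples to stimulatory G proteins and cyclic AMP and lies on chromosome 9 at 110722085 to 110747145. It had 50 counts in the compressed library (37.1 to 65.9) and 41 counts in the control library (29.4 to 55.6), equal to 2.06 CPM in compressed against 1.64 CPM in control cells. The intervals overlapped, and at a ratio of 1.26 (0.816 to 1.95) these counts could not show a difference. Of 27 listed genes of parathyroid hormone signalling 19 lay above the minimum, with a median log2 ratio of 0.04. Of the 19, 1 was called higher (3.06% of all genes) and 0 lower (0.929%). The called gene was the orphan nuclear receptor Nr4a1, an immediate early gene, with 253 counts in compressed cells against 126 in control cells, a ratio of 2.07 (1.67 to 2.59). Mef2c, a transcription factor of bone and muscle, had a ratio of 1.81 (1.48 to 2.21), the G protein subunit Gnaq of 0.821 (0.591 to 1.14) and its relative Gna11 of 0.842 (0.792 to 0.894). The ligand gene Pthlh, picked once its values were known, had 26 counts in compressed cells against 27 in control cells. Gnas, the stimulatory G protein subunit that nearly every cell uses, was picked in the same way and had 0 counts in compressed cells against 2 in control cells. A row at or near 0 in this table therefore does not show that a gene is silent, which bears on every 0 given here.

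Ghr, the growth hormone receptor, signals through the kinase JAK2 and lies on chromosome 15 at 3317755 to 3583352. Ghr had 2194 counts in compressed cells against 2215 in control cells, equal to 90.3 CPM in compressed against 88.4 CPM in control cells. The libraries were close, and the ratio of 1.02 had an interval of 0.963 to 1.08. Of 18 listed genes of growth hormone signalling 17 lay above the minimum, and the median log2 ratio was 0.09. Of the 17, 0 were called higher (3.06% of all genes) and 0 lower (0.929%). The adaptor Sh2b2 had a ratio of 1.59 (1.35 to 1.87) and the feedback inhibitor Cish, a direct target of STAT5, of 1.42 (1.15 to 1.76). Irs1, an adaptor shared with the insulin receptor, had 2434 counts in compressed cells against 4119 in control cells, a ratio of 0.610 (0.580 to 0.641). The related prolactin receptor gene Prlr had a ratio of 0.748 (0.543 to 1.03).

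Npy1r, a receptor for neuropeptide Y that couples to inhibitory G proteins and restrains bone formation in mice, had the lowest ratio of the 10. It lies on chromosome 8 at 66697149 to 66706800. Npy1r had 10 counts in the compressed library (4.80 to 18.4) and 43 counts in the control library (31.1 to 57.9), equal to 0.412 CPM in compressed against 1.72 CPM in control cells. The intervals did not overlap and the compressed library was the low one. The ratio of 0.240 (0.108 to 0.485), a log2 ratio of -2.01, was called lower. Of the genes above the CPM minimum, which Npy1r passed through the control library alone, 0.0571% had a log2 ratio as low or lower. The minimum leaves out rows with low counts in both libraries. Npy1r was also picked with its ratio known, so nothing is read from that share. The other receptors of this family were barely counted, and these genes were chosen after their values were seen. Npy5r, the neighbouring gene on chromosome 8, had 2 counts in compressed cells against 0 in control cells, Npy4r had 5 in compressed against 4 in control cells, and Npy2r and the ligand gene Npy had 0 in both. Of the 11 listed genes of the system other than Npy1r, 2 lay above the minimum. Of these, 0 were called higher (3.06% of all genes) and 0 lower (0.929%). They were the inhibitory G protein subunits Gnai2, at a ratio of 1.09 (1.05 to 1.12), and Gnai3, at 0.863 (0.830 to 0.898).

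The genes most like the called receptors were sought among mRNAs with a control count within 20% of theirs, by the difference in log2 ratio over the 2 libraries. For Esr1, with 420 such mRNAs, the nearest was the synaptic vesicle gene Sv2b, with 28 counts in compressed cells against 75 in control cells, at a difference of 0.26. Mroh6, with 33 counts in compressed against 81 in control cells, followed at 0.38. The small GTPase gene Rasl11a, with 34 in compressed against 81 in control cells, was at 0.42. For Npy1r, with 360 such mRNAs, they were the scaffold gene Shank2, with 10 counts in compressed cells against 36 in control cells, Mlc1, with 11 in compressed against 38 in control cells, and Zbtbd6, with 15 in compressed against 49 in control cells. Their differences were 0.25, 0.31 and 0.38. All 6 had a higher ratio than the receptor they were matched to. Esr1 and Npy1r were picked with their low ratios known, so nothing is read from that order.

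Among the 29 genes of the nuclear receptor family above the CPM minimum, Esr1 had the lowest ratio and Esr2 the next lowest. The interval of Esr2, 0.472 to 0.816, covers the ratios of Nr2f2 and Rarb, so its rank is not resolved. That of Esr1, 0.204 to 0.493, overlaps the intervals of Esr2 and of Rarb, 0.371 to 1.21. Both estrogen receptor genes were picked with their ratios known, so nothing is read from either rank. Genes below the minimum were not ranked. Among them Pparg, picked once its values were known, had 2 counts in compressed cells against 11 in control cells, a lower ratio than that of Esr1. The family has 49 listed genes, 7 of them among the 10 receptors described here. The other 22 above the minimum had a median log2 ratio of 0.17. Of the 22, 3 were called higher (3.06% of all genes) and 0 lower (0.929%). The 3 were Nr1d1, Nr4a1 and Nr4a3, an orphan receptor and immediate early gene with 29 counts in compressed cells against 3 in control cells, a ratio of 9.98 (3.09 to 51.2). Nr4a3 passed the minimum through the compressed library alone and was not called at a CPM minimum of 5, which left 2 called higher. Nr2f2, the orphan receptor COUP-TFII, had 1052 counts in compressed cells against 1599 in control cells, a ratio of 0.679 (0.627 to 0.734). The most counts went to the orphan receptor Nr2c2, with 4762 in compressed cells against 4618 in control cells, then to Nr3c1 and Rarg. Counts depend on transcript length, which was not available here, so levels of different genes are not compared.

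**Figure D4:**
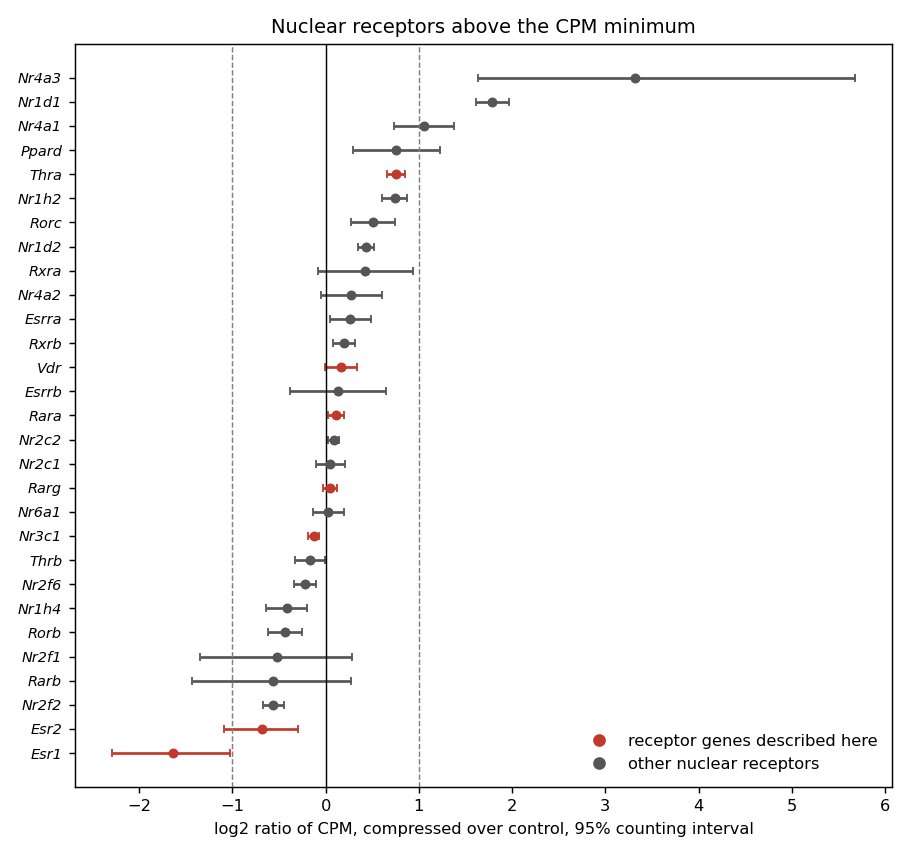
Log2 ratio of CPM, compressed over control, of the 29 nuclear receptor genes above the CPM minimum, with 95% counting intervals; red marks the 7 that belong to the receptors described here, and dashed lines mark a 2-fold difference. Esr1 and Esr2 are at the bottom, Thra is near the top, and Vdr, Rara, Rarg and Nr3c1 lie close to 0.

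No gene was called among the partners and chaperones that these nuclear receptors work with. Calls were rare in general, with shares over all genes of 3.06% on the higher side and 0.929% on the lower side. Most partners and chaperones averaged 50 CPM or more. In that range the shares were 0.809% on the higher side and 0.0202% on the lower side. Nothing is therefore read from the absence of calls here. Of 21 listed heterodimer partners and cofactors 20 lay above the minimum, 0 were called, and the median log2 ratio was -0.01. Rxra, a retinoid X receptor that pairs with the vitamin D, retinoic acid and thyroid hormone receptors, had 78 counts in compressed cells against 60 in control cells, a ratio of 1.34 (0.946 to 1.91). The corepressor subunit Tbl1xr1 had a ratio of 1.27 (0.765 to 2.13). The coactivator Ppargc1b, with 565 counts in compressed cells against 860 in control cells, had the lowest ratio at 0.678 (0.609 to 0.755), followed by the arginine methyltransferase Prmt1 at 0.836 (0.800 to 0.874). The 10 chaperones that hold steroid receptors ready for hormone were all above the minimum and 0 were called, with a median of -0.04. They ran between the cyclophilin Ppid at 0.810 (0.768 to 0.854), with the cochaperone Ptges3 next at 0.856, and the cochaperone Stip1 at 1.05 (1.02 to 1.09), with Hsp90ab1, a form of the chaperone HSP90, at 1.03.

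**Figure D5:**
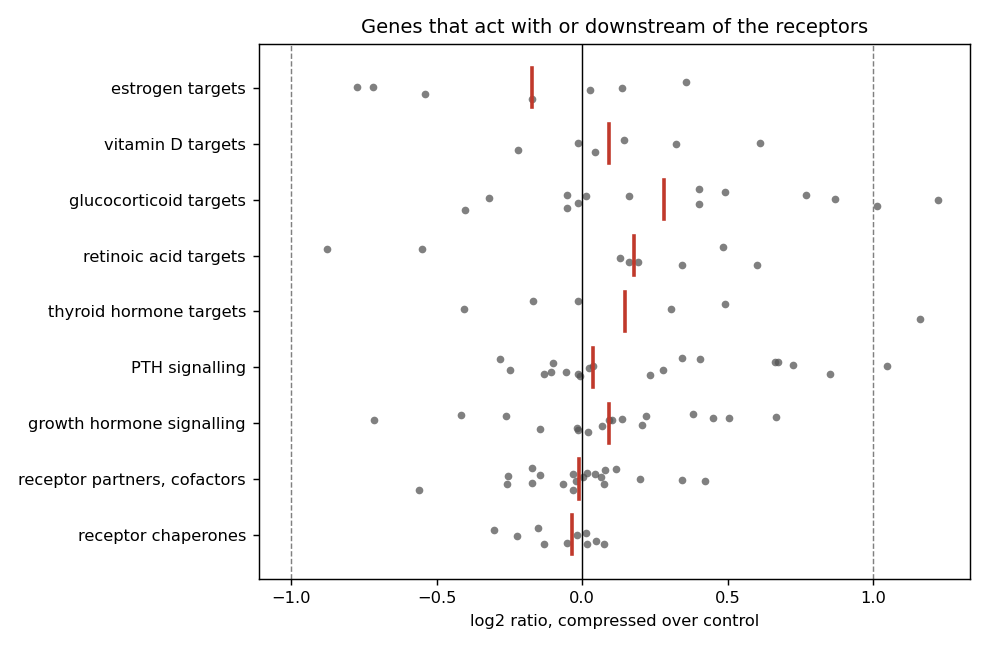
Log2 ratio, compressed over control, of genes above the CPM minimum that act with or downstream of the receptors; each point is a gene, the red bar is the list median without the 10 receptors, the vertical spread within a list is for display, and dashed lines mark a 2-fold difference. The estrogen targets have the lowest median, at -0.17, and the glucocorticoid targets the highest, at 0.28, with Per1 and Ddit4 beyond the line and Hr and Nr4a1 beyond it in the thyroid and parathyroid hormone lists.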

How the data were processed

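RNA sequencing of 1 compressed and 1 control library of OCCM-30 cells was analysed. The deposited table holds whole-number read counts per gene without normalization. The submitters' processing notes name HISAT2 and GRCm38. The sources used here do not give the counting tool, the annotation, the strand setting or how multiply aligned reads were treated, which makes overlapping genes and genes with copies uncertain.

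CPM used effective library sizes from trimmed mean of M-values factors (edgeR 4.0.16, R 4.3.3). Ratios have exact 95% Clopper-Pearson intervals and counts exact Poisson intervals (scipy 1.17.1). Reads are not independent molecules, so intervals and floors (3 counts) cover counting error only. No p-value was computed, since 1 library per group leaves no residual degrees of freedom.

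The members and lists were chosen with earlier results of these data known. Named were all 10 members, each called list gene, the 2 highest and 2 lowest of each list and the 3 nuclear receptors with the most counts; others are said to be chosen after their values were seen. RefSeq synonyms (GRCm38.p6) served for older symbols, and 320 of 321 listed entries matched a row. Alternatives were other scalings (DESeq2 1.42.0 among them), a loess trend (statsmodels 0.14.6), other CPM minimums, prior counts, fold limits and intervals.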

Additional observations from a re-analysis of the deposited data

How the results depend on the processing

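Esr1 and Npy1r were called lower under 9 of 10 alternatives. Among the 9, no CPM minimum, a fold limit of 1.5 and no interval requirement only loosen the rule. They could not have removed a call. At a CPM minimum of 5, which 7 of the 10 receptor genes passed and Esr1, Npy1r and Pth1r did not, 0 receptor genes were called lower. At a fold limit of 1.5, 1 receptor gene was called higher, Thra, and Esr2 joined the lower genes. All 100 log2 ratios of the receptor genes under the alternatives lay within the counting interval of the reported value. Many of these were fixed in advance, because other CPM minimums, fold limits and interval rules leave a log2 ratio unchanged. Only the scalings, the loess trend and the prior count could move it. The log2 ratios of Esr1 ranged between -1.71 and -1.49, of Npy1r between -2.18 and -1.64, and of Thra between 0.74 and 0.79. Over all genes the calls were 773 higher and 369 lower with no CPM minimum, 154 higher and 12 lower at a minimum of 5, and 1023 higher and 520 lower at a fold limit of 1.5. With a prior count of 5, 81 genes were called lower. Ddit4 was not called under DESeq2 size factors, nor Nr4a3 at a CPM minimum of 5. Adrb1 was not called under the loess trend, the prior count of 5, the CPM minimum of 5 or the interval widened for an assumed coefficient of variation of 0.2. Depth limits the low genes: counting error alone leaves the Npy1r ratio anywhere between 0.108 and 0.485. No paired analysis was possible because each group has 1 library and the labels give no replicate numbers.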

Other observations

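Further hormone receptors known from bone had 18 of 36 listed genes above the CPM minimum, with a median log2 ratio of 0.06. Of the 18, 1 was called higher (3.06% of all genes) and 0 lower (0.929%). The called gene was the beta-1 adrenergic receptor Adrb1, with 28 counts in compressed cells against 14 in control cells, a ratio of 2.06 (1.05 to 4.24). The membrane estrogen receptor gene Gper1 had 36 counts in compressed cells against 22 in control cells, and the interval of its ratio, 0.967 to 3.01, included 1. Npr3, which clears natriuretic peptides from the cell surface, had 1790 counts in compressed cells against 3165 in control cells, a ratio of 0.584 (0.550 to 0.619). The fibroblast growth factor receptor Fgfr2 had 2202 counts in compressed cells against 3378 in control cells, a ratio of 0.673 (0.637 to 0.710). The counts of 13 of the 36 genes were 0 in both libraries.

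Enzymes and transporters that supply or remove the hormones had 6 of 24 listed genes above the minimum, with a median log2 ratio of -0.10. Of the 6, 0 were called higher (3.06% of all genes) and 0 lower (0.929%). Besides Cyp26b1, Dhrs3 and Cyp27b1, given with the retinoic acid and vitamin D genes, Hsd17b4 had a ratio of 1.11 (0.786 to 1.56). Aromatase (Cyp19a1), which makes estrogen, had 0 counts in both libraries. Hsd17b1, which turns estrone into estradiol, had 23 counts in compressed cells against 4 in control cells, below the CPM minimum in both. These last 2 genes were chosen after their values were seen.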
